A study of Mus musculus with 12 samples.

Results

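The clustered protocadherins are cell adhesion proteins of neurons, and this report describes the variable genes of the alpha and gamma clusters in embryonic brain without NSD2. Members were all genes of the count tables whose symbol is Pcdha followed by a number, or Pcdhga or Pcdhgb followed by a number. The rule took 33 of the 46078 genes, namely 13 Pcdha, 13 Pcdhga and 7 Pcdhgb genes. The C-type genes at the end of each cluster were left out by the rule. RNA was sequenced from brains of Nsd2 KO and WT mouse embryos at E15.5, with 3 KO male, 3 WT male, 3 KO female and 3 WT female libraries. The KO allele was made by CRISPR/Cas9 editing and lacks the whole coding sequence of Nsd2, an H3K36 methyltransferase. The study calls the libraries of a group biological replicates. KO and WT mice shared the C57BL/6 background, and KO mice die soon after birth. The tissue was bulk brain, so fewer cells of a type and less RNA per cell cannot be told apart. The sources used here do not say which parts of the brain each library held.

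In each cluster, a row of variable exons lies in front of a set of constant exons. Every variable exon has its own promoter, and the transcript started there is spliced to the constant exons. The variable exon encodes the extracellular cadherin domains, the transmembrane segment and the start of the cytoplasmic tail, and the constant exons encode the rest of the tail. A neuron uses only some of the promoters, a choice that involves CTCF and cohesin. The proteins bind the same isoform on a facing membrane, which lets neurites of a cell recognise each other.

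All members lie on the plus strand of mouse chromosome 18 (GRCm38). The alpha genes span 36930184 to 37187661 and the gamma genes 37661793 to 37841873. By their identifiers in the GENCODE annotation, 31 of the 33 rows are variable genes, with 12 alpha, 12 gamma A and 7 gamma B genes. The row Pcdha4 (ENSMUSG00000103458) is a read-through model from the alpha into the gamma cluster, and was listed at 0 in 9 of 12 libraries. The row Pcdhga8 (ENSMUSG00000023036) is annotated as the C-type gene Pcdhgc4. Both are counted as members where the text says 33 and are set apart where it says 31. Symbol Pcdha11 stands on 2 rows. The first, ENSMUSG00000007440, starts 117 bases from the RefSeq start of Pcdha10, and the second, ENSMUSG00000102206, has Pcdha11 as its nearest RefSeq start. Among the variable genes, 31.5% (Pcdhgb5) to 66.8% (Pcdhga4) of the annotated exon bases lie in exons that other genes share, mainly the constant exons. Reads from those bases were allotted among genes by estimation, so the counts of members are not independent and their split is uncertain.

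Library totals ranged from 40398665 to 59304196 counts. Nsd2, listed under the older symbol Whsc1, had 0.902 to 2.64 CPM (counts scaled to a common library size, with TMM factors) in KO libraries, against 347 to 413 CPM in WT libraries, as the labels say. All neuron, radial glia and forebrain markers were detected, and none of the 8 marker lists had a gene called over both sexes. Hox genes, markers of caudal tissue, set libraries apart within groups: Hoxa5 was at 1 CPM or more in 3 of the KO libraries (KO male 2, KO female 2 and KO female 3) and in 3 of the WT libraries (WT male 2, WT male 3 and WT female 3). The summed level of 12 Hox genes was 0.475 to 67.5 CPM in KO males, against 26.3 to 191 CPM in WT males, and 4.86 to 217 CPM in KO females, against 0.912 to 229 CPM in WT females. Results with the Hox level taken into account are given below.

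Every one of the 31 variable genes was detected in every library, with 50 to 4738 counts per gene and library. Per kilobase of exon, the mean level over the 12 libraries ranged 18.3-fold, between 0.655 CPM per kb for Pcdha8 and 11.96 CPM per kb for Pcdhgb8. The range was 11.2-fold in KO libraries, between 0.830 for Pcdha8 and 9.26 for Pcdhgb6, and 31.1-fold in WT libraries, between 0.480 for Pcdha8 and 14.9 for Pcdhgb8. The median level was 2.85 CPM per kb for alpha genes, 5.05 CPM per kb for gamma A genes and 4.21 CPM per kb for gamma B genes. In the alpha cluster the highest levels per length were those of Pcdha7 (4.91 ± 0.889 CPM per kb, SD, n = 12) and Pcdha2 (4.36 ± 1.24), which do not differ beyond their spread. Pcdha8 and Pcdha1 (0.884 ± 0.298) were the lowest of this cluster. Among gamma A genes Pcdhga11 (8.16 ± 1.501 CPM per kb), Pcdhga2 (7.95 ± 1.17) and Pcdhga3 (7.79 ± 1.08) lay within their spread of each other, and Pcdhga1 was lowest at 1.58 ± 0.424. Among gamma B genes Pcdhgb8 (11.96 ± 5.94 CPM per kb) and Pcdhgb6 (10.4 ± 1.40) led, and Pcdhgb5 was lowest at 2.39 ± 0.963. The SDs here include the difference between genotypes.

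**Figure D1:**
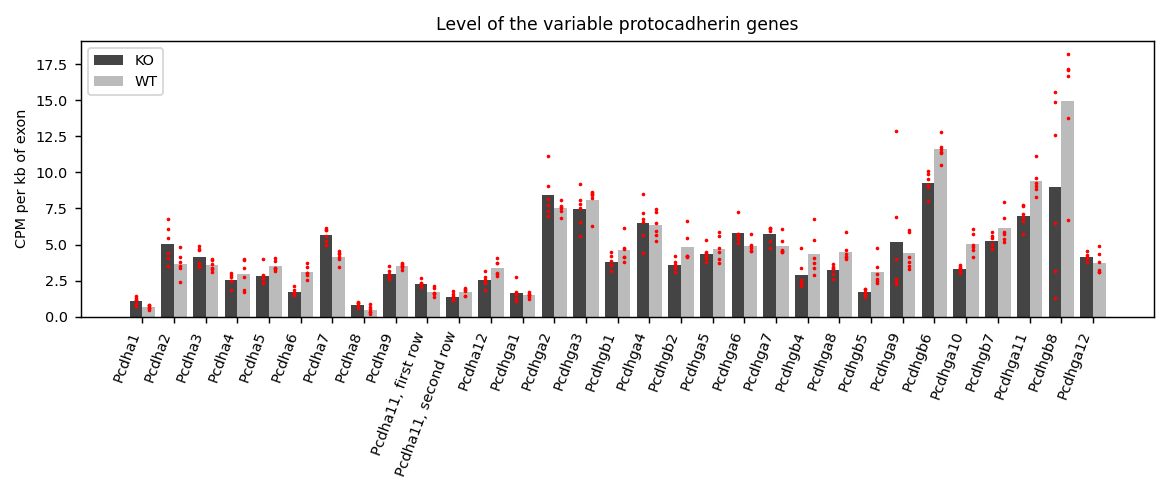
Level of the 31 variable genes, in order along the alpha and then the gamma cluster. Bars start at 0 and give the mean CPM per kb of exon over 6 KO libraries (dark) and 6 WT libraries (light), red points are single libraries, and the first and second row of Pcdha11 are ENSMUSG00000007440 and ENSMUSG00000102206. Pcdhgb6 has the highest KO bar and Pcdhgb8 the highest WT bar, and Pcdha8 and Pcdha1 the lowest.

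Members lay on both sides of WT in KO brains. Across both sexes, with sex as a covariate, 9 of the 32 members tested were differentially expressed genes (DEGs): 6 fell and 3 rose (edgeR quasi-likelihood test, Benjamini-Hochberg adjusted p under 0.05). Among all 19387 genes tested in the same fit, 1.98% were called, 1.57% lower and 0.407% higher. The genes that fell were Pcdha6 in the alpha cluster and Pcdhga8, Pcdhgb5, Pcdhgb6, Pcdhga10 and Pcdhga11 in the gamma cluster. The genes that rose were Pcdha1, Pcdha7 and Pcdha11 (ENSMUSG00000007440), all in the alpha cluster. The median log2 fold change was -0.12 over the 31 variable genes and 0.01 over all genes. Some of the members were in the study's own lists of DEGs from these samples, so their calls are no independent evidence.

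**Figure D2:**
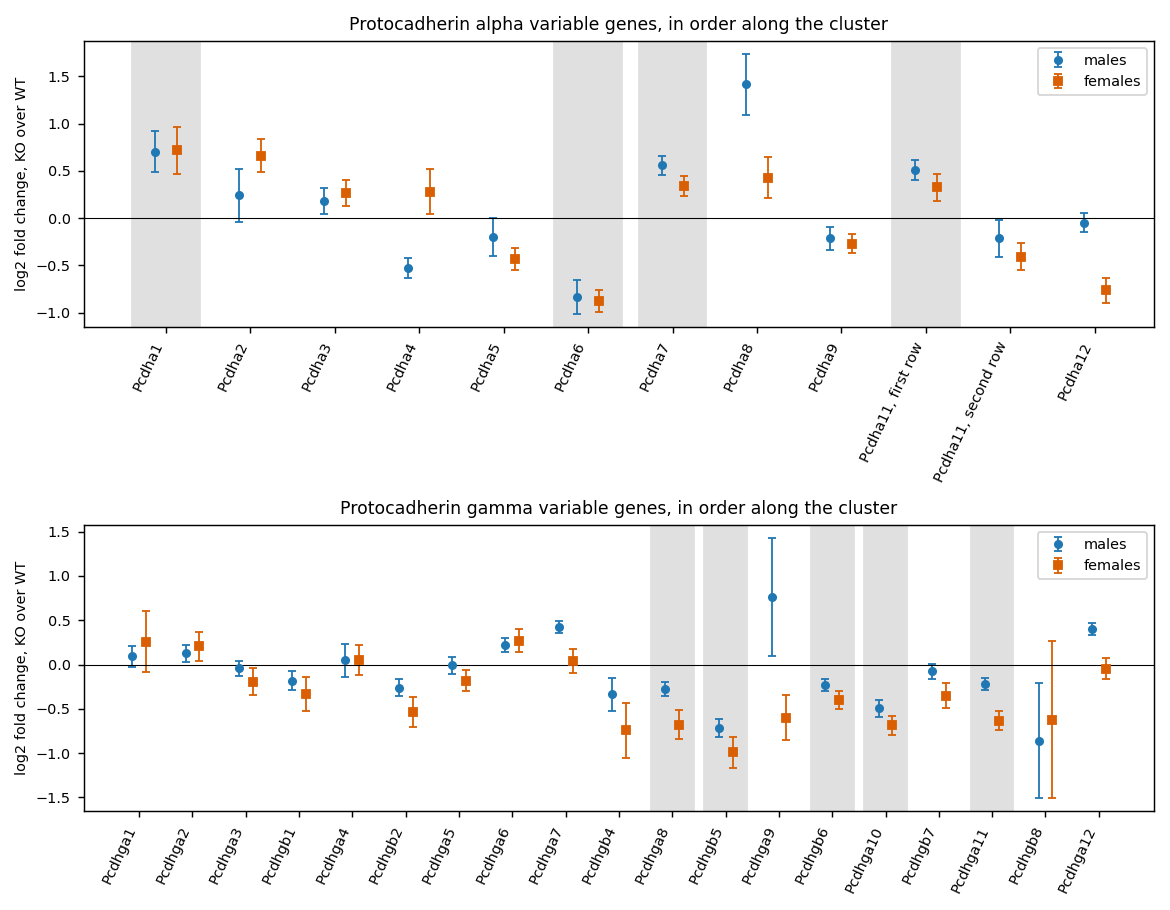
Log2 fold change of KO over WT (points, with the standard error as bars) in males (circles) and females (squares) for the variable genes in order along each cluster. Shaded genes passed the test over both sexes, and all 7 Pcdhgb genes lie below 0 in both sexes while alpha genes lie on both sides.

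Pcdha6 had the lowest fold change of the alpha genes. This gene (ENSMUSG00000103707) starts at 36967631 on chromosome 18, and its variable exon is followed within the cluster by that of Pcdha7. Its level was 8.04, 8.29 and 11.5 CPM in KO males, against 16.1, 19.9 and 13.7 CPM in WT males. In females it was 8.46, 8.90 and 9.93 CPM in KO, against 15.6, 18.5 and 16.4 CPM in WT. KO libraries lay below WT libraries in both sexes, with no overlap. The log2 fold change over both sexes was -0.85 (SE 0.107, adjusted p = 0.000914), with -0.83 (SE 0.181, adjusted p = 0.131) in males and -0.88 (SE 0.118, adjusted p = 0.114) in females.

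Its neighbour Pcdha7 (ENSMUSG00000104318, start 36973802) went the other way. Pcdha7 had 32.0, 32.9 and 29.7 CPM in KO males, against 18.5, 23.7 and 22.3 CPM in WT males. In KO females it had 32.2, 26.7 and 27.8 CPM, against 24.3, 23.3 and 21.3 CPM in WT females. It was the only 1 of the 31 variable genes whose KO libraries lay above the WT libraries in both sexes. The log2 fold change was 0.45 (SE 0.078, adjusted p = 0.00814) over both sexes, 0.56 in males (adjusted p = 0.0723) and 0.34 in females (adjusted p = 0.547). As a share of the summed CPM of the 12 alpha genes, Pcdha7 made up 17.5% ± 0.558 in KO males, against 12.1% ± 0.333 in WT males, and 16.0% ± 1.45 in KO females, against 12.8% ± 0.776 in WT females (SD, n = 3 each). The share of Pcdha6 was 5.17% ± 1.28 in KO males, against 9.36% ± 1.52 in WT males, and 5.08% ± 0.831 in KO females, against 9.40% ± 0.926 in WT females.

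Pcdha1 and Pcdha11 (ENSMUSG00000007440) were the other alpha genes that rose over both sexes. Pcdha1, the first gene of the cluster (start 36930184), had 7.61, 6.79 and 4.68 CPM in KO males, against 3.07, 4.28 and 4.41 CPM in WT males. In females it had 3.81, 6.02 and 6.30 CPM in KO, against 3.29, 2.56 and 3.97 CPM in WT, where KO female 1 lay among the WT libraries. The log2 fold change was 0.71 (SE 0.167, adjusted p = 0.0460), and with each library left out in turn the call held only without KO male 3, KO female 1 or WT female 3 (adjusted p up to 0.136). Without a filter on low counts it was also lost (adjusted p = 0.0643).

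Pcdha11 (ENSMUSG00000007440), which starts at 37005203, had 11.2, 11.7 and 12.3 CPM in KO males, against 8.94, 8.37 and 7.48 CPM in WT males. In females the libraries of the 2 genotypes overlapped narrowly, at 14.4, 12.6 and 11.5 CPM in KO, against 10.7, 11.6 and 8.70 CPM in WT. Over both sexes the fitted log2 fold change came to 0.42, with SE 0.089 and adjusted p = 0.0275, and the call held without KO female 2, KO female 3, WT male 1, WT female 1 or WT female 2 and was lost without any other library (adjusted p up to 0.0828). The other row of that symbol, Pcdha11 (ENSMUSG00000102206), was not called (-0.31 on the log2 scale, SE 0.124, adjusted p = 0.290).

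None of the remaining alpha genes was called over both sexes. Pcdha2, the alpha gene with the second level per length, had 29.3, 23.6 and 18.7 CPM in KO males, against 13.03, 22.0 and 25.8 CPM in WT males. In females Pcdha2 had 32.5, 36.4 and 21.7 CPM in KO, against 18.8, 18.3 and 20.4 CPM in WT. Its libraries overlapped in males and did not in females, and the log2 fold change was 0.45 (SE 0.182, adjusted p = 0.288). Pcdha8, the least abundant member per length, had the highest log2 fold change of the 31 genes (0.92, SE 0.245, adjusted p = 0.0867). It had 5.43, 3.11 and 3.51 CPM in KO males, against 0.887, 1.87 and 1.77 CPM in WT males, and its libraries overlapped in females. The others ranged between -0.40 (Pcdha12) and 0.23 (Pcdha3). In all, 6 of the 12 alpha genes were below 0 and 6 above.

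**Figure D3:**
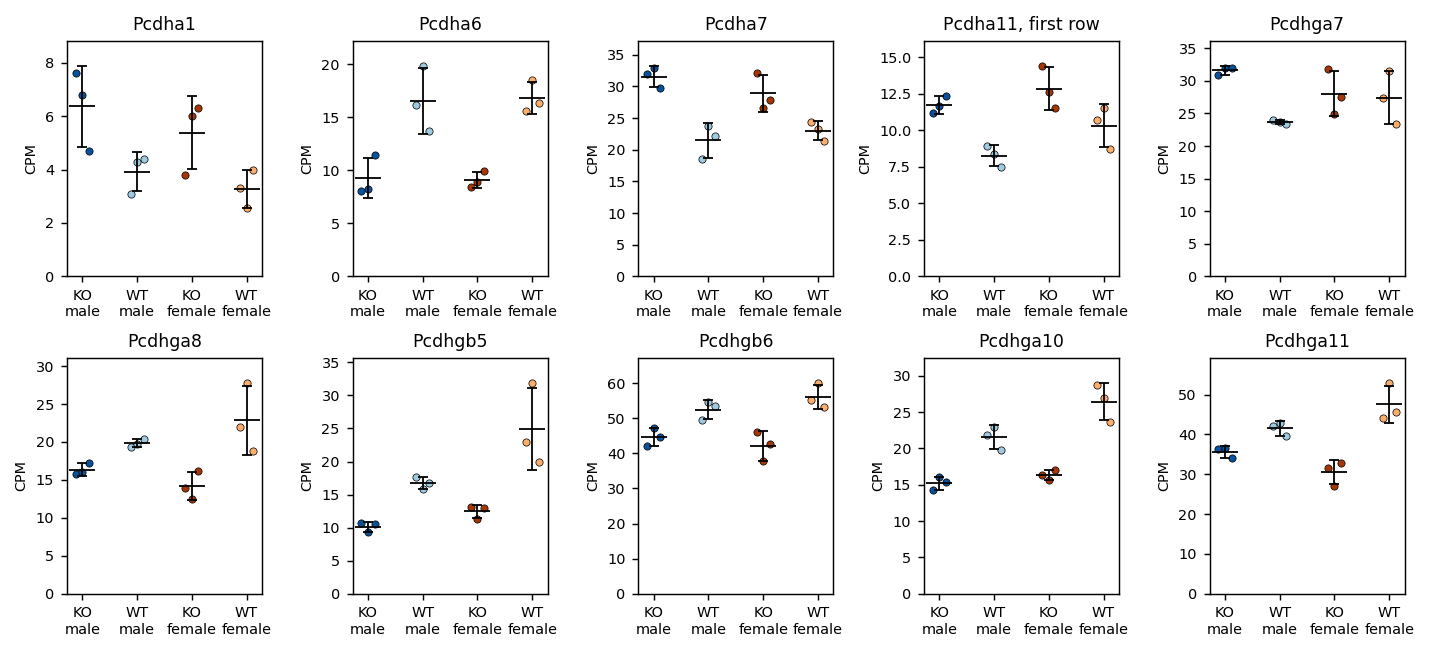
CPM of the 10 members called in any comparison of KO with WT, 1 point for each library, with the mean (line) and SD (bars) of 3 libraries. In Pcdha6, Pcdhga8, Pcdhgb5, Pcdhgb6, Pcdhga10 and Pcdhga11 the KO points lie below the WT points in each sex, and in Pcdha7 above them. The first row of Pcdha11 is ENSMUSG00000007440.

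In the gamma cluster the DEGs over both sexes all fell, and they lie in the later part of the row of variable exons, between Pcdhga8 (start 37725706) and Pcdhga11 (start 37755731). Within that stretch Pcdhga9 (log2 fold change 0.09) and Pcdhgb7 (-0.21) were not called. The earlier genes Pcdhgb4 (-0.54, SE 0.205) and Pcdhgb2 (-0.39, SE 0.107) were not called either. Their values lay farther below 0 than that of Pcdhgb6 (-0.31, SE 0.063), which was. Pcdhgb5 (ENSMUSG00000103749, start 37731009) had 10.7, 9.30 and 10.5 CPM in KO males, against 17.7, 15.8 and 16.7 CPM in WT males. In females it had 13.1, 11.3 and 12.96 CPM in KO, against 23.0, 31.8 and 19.99 CPM in WT. No KO library reached the lowest WT library of its sex. The log2 fold change was -0.85 (SE 0.109, adjusted p = 0.00107) over both sexes and -0.99 (SE 0.174, adjusted p = 0.232) in females. In males Pcdhgb5 passed the test on its own (-0.72, SE 0.097, adjusted p = 0.0244), where the call held only without WT male 2 among the 6 libraries left out in turn (adjusted p up to 0.134).

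Pcdhga10 (ENSMUSG00000102222, start 37746993) had 14.2, 16.0 and 15.4 CPM in KO males, against 21.8, 23.0 and 19.7 CPM in WT males. In females Pcdhga10 had 16.3, 15.6 and 17.0 CPM in KO, against 28.7, 27.0 and 23.6 CPM in WT. The libraries of the genotypes were well apart in both sexes, and the SD of log2 CPM within groups was 0.103. Over both sexes the fitted log2 fold change was -0.59, with SE 0.069 and adjusted p = 0.000563.

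Pcdhga11 (ENSMUSG00000102742), the gamma A gene with the highest level per length in WT libraries and over all 12, had 36.3, 36.7 and 34.0 CPM in KO males, against 42.2, 43.0 and 39.5 CPM in WT males. In females it had 31.5, 27.1 and 32.9 CPM in KO, against 44.2, 52.9 and 45.7 CPM in WT. The groups did not overlap, and the gap was wider in females, with log2 fold changes of -0.63 in females and -0.22 in males. Females minus males came to -0.41 (SE 0.129) and was not called (adjusted p = 0.910). Over both sexes the log2 fold change was -0.42 (SE 0.085, adjusted p = 0.0228), and the call was lost without KO female 1 or KO female 3 (adjusted p up to 0.0566).

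Pcdhgb6 (ENSMUSG00000103088, start 37742094) had 42.0, 47.1 and 44.6 CPM in KO males, against 49.4, 54.5 and 53.5 CPM in WT males. In females it had 46.2, 37.7 and 42.6 CPM in KO, against 55.1, 60.0 and 53.1 CPM in WT. This is a small decrease of an abundant member, of -0.31 on the log2 scale (SE 0.063, adjusted p = 0.0223). Its call was lost without KO male 1, KO female 3 or WT male 2 (adjusted p up to 0.0605).

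Pcdhga8 (ENSMUSG00000103897) had 15.7, 16.0 and 17.3 CPM in KO males, against 19.4, 19.7 and 20.4 CPM in WT males. In females Pcdhga8 had 13.9, 12.5 and 16.2 CPM in KO, against 22.0, 27.7 and 18.8 CPM in WT. KO libraries were again all below WT libraries of the same sex. Over both sexes the fitted value was -0.47 on the log2 scale, with SE 0.107 and adjusted p = 0.0397, and the call held without KO male 3, WT male 1, WT female 2 or WT female 3 and was lost without any other library (adjusted p up to 0.0926).

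All 7 gamma B genes had log2 fold changes below 0, in males (-0.86 to -0.08, median -0.26), in females (-0.99 to -0.34, median -0.54) and over both sexes (-0.85 to -0.21, median -0.39). Of these, 2 passed the test over both sexes, Pcdhgb5 and Pcdhgb6. Pcdhgb1, Pcdhgb2, Pcdhgb4, Pcdhgb7 and Pcdhgb8 did not (adjusted p between 0.0908 for Pcdhgb2 and 0.619 for Pcdhgb8). The 12 gamma A genes were mixed, with 5 below 0 and 7 above over both sexes and a median of 0.07. Of all genes, 9559 of 18671 were below 0 in males, 9062 of 18709 in females and 9230 of 19387 over both sexes. The first gamma A genes Pcdhga1 and Pcdhga2 had values of 0.18 and 0.17, neither of which passed the test. Gamma A and gamma B genes are interspersed along the cluster and are spliced to the same constant exons.

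Pcdhga2, an abundant gamma A gene, had 34.4, 42.5 and 36.2 CPM in KO males, against 32.1, 35.6 and 36.0 CPM in WT males. In females it had 52.3, 32.7 and 38.4 CPM in KO, against 35.4, 37.8 and 34.3 CPM in WT. The genotypes overlapped in both sexes, and KO female 1 was the highest library. Pcdhga7 (ENSMUSG00000103472) was the only variable gamma gene that the quasi-likelihood test called higher, and it did so in males alone. It had 30.8, 32.0 and 32.0 CPM in KO males, against 24.0, 23.6 and 23.4 CPM in WT males (log2 fold change 0.42, SE 0.066, adjusted p = 0.0407). In females Pcdhga7 had 31.8, 24.9 and 27.5 CPM in KO, against 27.3, 31.5 and 23.4 CPM in WT (0.04, SE 0.137, adjusted p = 0.960). Females minus males came to -0.38 (SE 0.153) and was not called either (adjusted p = 0.910). The call in males was lost without any 1 of the 6 male libraries (adjusted p up to 0.283). Pcdhga12, the last variable gamma gene, also lay apart in males, with 27.5, 28.4 and 27.0 CPM in KO, against 21.6, 20.6 and 20.8 CPM in WT (0.40, SE 0.070, adjusted p = 0.0597), and DESeq2 and the likelihood ratio test called it.

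Within each sex few members passed. In males 2 of 33 members were called, Pcdhgb5 lower and Pcdhga7 higher, where 0.461% of 18671 genes were called (0.337% lower and 0.123% higher). In females the quasi-likelihood test called 0 of 32 members, where 0.016% of 18709 genes were called (0.00535% lower and 0.0107% higher). There 17 of the 32 members had an unadjusted p under 0.05, as did 7.47% of all genes. DESeq2 called 6 members lower in females, where it called 0.69% of all genes lower, and edgeR's likelihood ratio test called 5 lower, where it called 0.337%. In males DESeq2 called 4 members lower and 5 higher, where it called 1.94% of all genes lower and 0.653% higher. The test of the difference between sexes called 0 of 33 members and 0% of all genes with the quasi-likelihood test, where 6 members and 4.45% of all genes had an unadjusted p under 0.05, and DESeq2 and the likelihood ratio test also called 0 members.

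Counted by libraries alone, KO and WT males did not overlap in 15 members, 8 lower and 7 higher, where 8.97% and 8.18% of genes did not overlap in those directions. KO and WT females did not overlap in 13 members, 11 lower and 2 higher, where the shares were 6.63% and 7.48% of genes. In both sexes in the same direction, 6 members were lower, the 6 DEGs that fell, and 1 was higher, Pcdha7. Of all genes 2.26% were lower and 1.16% higher by that count. Log2 fold changes had the same sign in males and females in 28 of the 31 variable genes, and over these genes males and females had Pearson's r = 0.67 and Spearman's rho = 0.73. The share of all genes with the same sign in both sexes was not determined. The points of that correlation are genes that share libraries and constant exons, so it is a description. The exceptions were Pcdha4, Pcdhga9 and Pcdhga12. Pcdha4 had 14.3, 14.1 and 16.7 CPM in KO males, against 19.6, 22.7 and 22.9 CPM in WT males, and 17.6, 15.9 and 10.5 CPM in KO females, against 15.7, 9.81 and 10.8 CPM in WT females. The female libraries overlapped, and the difference between sexes was 0.81 (SE 0.276, adjusted p = 0.910).

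Summed over the cluster, the alpha genes of KO and WT libraries overlapped in both sexes. Their sum was 180 ± 10.3 CPM in KO males, against 177 ± 18.6 CPM in WT males, and 180 ± 13.6 CPM in KO females, against 179 ± 1.99 CPM in WT females (SD, n = 3 each). The gamma B sum was 168 ± 24.3 CPM in KO males, against 223 ± 23.7 CPM in WT males, and 187 ± 18.9 CPM in KO females, against 274 ± 26.6 CPM in WT females. KO libraries lay below WT libraries in both sexes for this sum, in males only just, with 195.6 CPM in the highest KO library, against 196.1 CPM in the lowest WT library. Pcdhgb8, the most variable member, is part of the sum, and no test was made on sums. The gamma A sum was 326 ± 13.5 CPM in KO males, against 304 ± 4.37 CPM in WT males, with no overlap. In females it was 299 ± 42.7 CPM in KO, against 340 ± 40.4 CPM in WT, with overlap. Pcdhga9 is part of this sum, with 71.8, 13.3 and 38.5 CPM in KO males, against 18.5, 21.2 and 33.5 CPM in WT males. Whether the male libraries stay apart without Pcdhga9 was not determined. Gamma A and B together summed to 494 ± 28.1 CPM in KO males, against 527 ± 23.5 CPM in WT males, with overlap, and to 487 ± 34.5 CPM in KO females, against 614 ± 67.0 CPM in WT females, with none. Of the 19 gamma genes, 14 were below 0 in females and 12 in males, where 9062 of 18709 and 9559 of 18671 genes were.

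**Figure D4:**
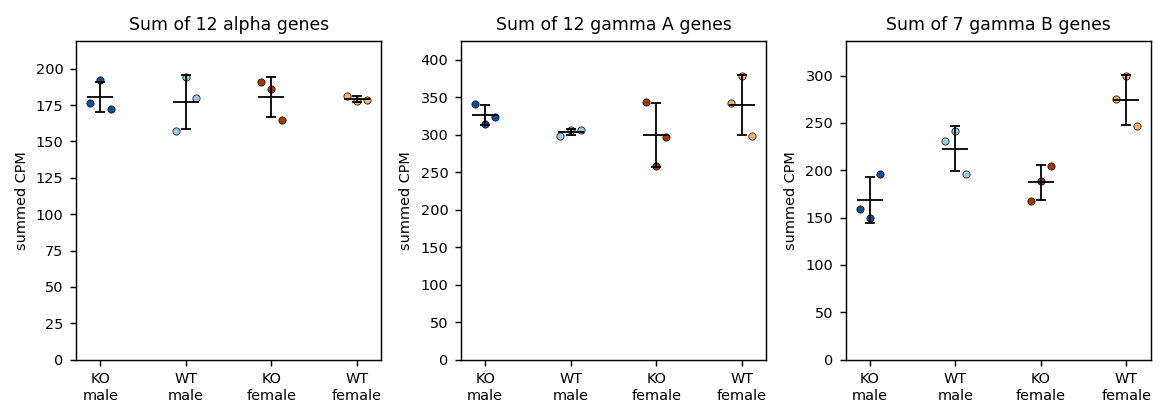
Summed CPM of the 12 alpha, 12 gamma A and 7 gamma B variable genes, 1 point for each library, with the mean (line) and SD (bars) of 3 libraries. The gamma B sum is lower in KO than in WT libraries in each sex, while the alpha sums overlap.

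A pair of gamma genes varied far more between libraries of a group than the rest. The SD of log2 CPM within groups was 1.18 for Pcdhgb8 and 0.699 for Pcdhga9, against 0.195 for the median of the 31 genes. Pcdhgb8 is annotated as a polymorphic pseudogene. It had 30.0, 14.6 and 58.0 CPM in KO males, against 76.9, 79.0 and 30.9 CPM in WT males, and 5.95, 68.8 and 71.9 CPM in KO females, against 84.0, 63.5 and 78.9 CPM in WT females. KO female 1 was the lowest library, and both genotypes overlapped in both sexes. The log2 fold change of -0.73 (SE 0.549, adjusted p = 0.619) did not pass the test. Pcdhga9 had 71.8, 13.3 and 38.5 CPM in KO males, against 18.5, 21.2 and 33.5 CPM in WT males, and KO male 1 alone held 4049 counts. In females Pcdhga9 had 22.2, 12.6 and 14.6 CPM in KO, against 23.3, 32.6 and 19.5 CPM in WT.

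**Figure D5:**
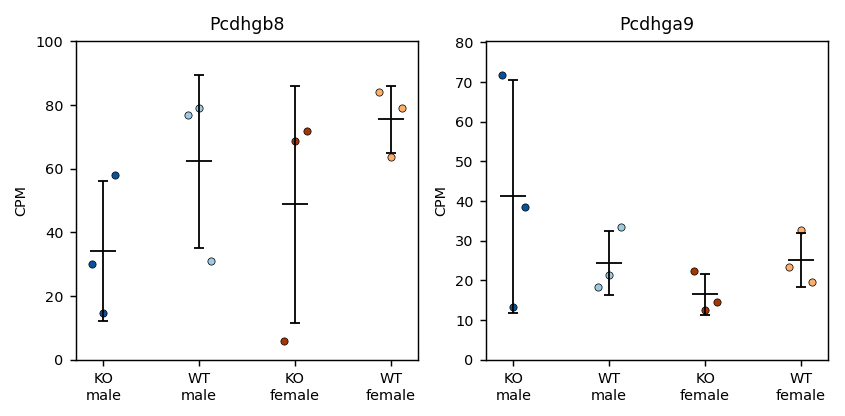
CPM of Pcdhgb8 and Pcdhga9 in each library, with the mean (line) and SD (bars) of 3 libraries. Pcdhgb8 ranges between 5.95 CPM in KO female 1 and 84.0 CPM in WT female 1, and Pcdhga9 reaches 71.8 CPM in KO male 1.

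The comparison was repeated with the Hox level, which differed between libraries of a group, taken into account. With the mean Hox level as a covariate, 8 members fell and 3 rose over both sexes, where 1.99% of all genes were called lower and 0.526% higher. In males the same covariate left 0 members called, and calls over all genes were also few (0.0482% lower and 0.0375% higher). For the members called in males without it, the folds with it were -0.83 for Pcdhgb5 (adjusted p = 0.110) and 0.41 for Pcdhga7 (adjusted p = 0.488). With the covariate 5 of the 7 gamma B genes were below 0 in males (median -0.40, against -0.26 without it). In females all 7 were (median -0.34, against -0.54 without it). For females minus males, 3 of the 7 were below 0 (median 0.02), against 6 without the covariate (median -0.27). In the 6 libraries with Hoxa5 under 1 CPM (3 KO and 3 WT), none of the members passed over both sexes. Of 19532 genes tested there, 32 were called lower and 6 higher. The subset is uneven by sex, as WT male 1 is its only WT male and KO female 1 its only KO female. WT male 1 also had a mean Hox level of 0.60 log2 CPM, against -4.01 to -1.15 in the others. In these 6 libraries Pcdhga10 had a log2 fold change of -0.66 (adjusted p = 0.0555), Pcdha7 of 0.60 (adjusted p = 0.0795), Pcdhgb5 of -0.89 (adjusted p = 0.0992) and Pcdha6 of -0.86 (adjusted p = 0.171), each at least as far from 0 as over all 12 libraries. Of the other genes called over both sexes, Pcdhga8 (-0.52) and Pcdhga11 (-0.43) were also farther from 0. Pcdhgb6 (-0.24), Pcdha1 (0.70) and Pcdha11 (ENSMUSG00000007440, 0.39) were nearer to 0 than over all 12 libraries. All 7 gamma B genes were below 0 in the subset (median -0.28, against -0.39 over all 12 libraries). Over both sexes the calls of Pcdhga10, Pcdha7, Pcdhgb5 and Pcdha6 held without each of the 12 libraries in turn. In males the summed level of 6 blood genes also differed, with 1819 to 2491 CPM in KO, against 2547 to 3194 CPM in WT. In females the summed level of 8 neuron genes lay apart, with 5493 to 5726 CPM in KO, against 5825 to 6187 CPM in WT, in the same libraries in which the gamma B sum was lower, while in males it overlapped (5880 to 6140 CPM in KO, against 5910 to 6162 CPM in WT). The part of either in the results was not tested.

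Other genes of the clusters were set beside the members. Among 4 C-type genes, which are expressed more evenly among neurons, Pcdhac2 fell (log2 fold change -0.49, SE 0.065, adjusted p = 0.00142) and Pcdhgc3 rose (0.29, SE 0.056, adjusted p = 0.0160) over both sexes. Among 21 tested protocadherin beta genes, which lie between the alpha and gamma clusters and have no constant exons, 19 rose and none fell, with a median of 0.80. The difference between that median and those of the alpha and gamma genes was not tested. The long noncoding gene Gm26672 is antisense to part of the gamma cluster and has exons over Pcdhga10, Pcdhgb7, Pcdhga11 and Pcdhga12. It had 1.05 to 1.75 CPM in KO libraries, against 1.95 to 4.18 CPM in WT libraries, and fell over both sexes (-0.89, SE 0.206, adjusted p = 0.0440). The strand setting of the counts was not given in the sources used here, so reads of Gm26672 and of these members may not have been told apart.

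Genes known to act on or with the clustered protocadherins mostly did not pass. None of 12 genes for CTCF, cohesin and loop factors was called over both sexes (median log2 fold change 0.10, against 0.01 for all genes, with 2 at an unadjusted p under 0.05), nor any of 14 for DNA methylation and silencing (median 0.06, with 0 at an unadjusted p under 0.05). Of all 19387 genes, 2687 had an unadjusted p under 0.05 and 10157 were above 0. Above 0 were all 12 of the first list and 11 of the second. In males all 12 and all 14 were (medians 0.15 and 0.16), and in females 7 and 4. The quasi-likelihood test in males gave an unadjusted p under 0.05 for 3 and 4 genes of these lists, and for 2230 of 18671 genes. In females it did so for 1 and 0, and for 1398 of 18709 genes. None of 10 genes of the WAVE complex, an actin regulator that binds protocadherin tails, was called (median 0.01, 1 at an unadjusted p under 0.05), and none of 7 for cleavage by ADAM10 and gamma-secretase (median 0.01, 0 at an unadjusted p under 0.05). Of 12 tested cytoplasmic partners and kinases, 1 fell, Prkcb, a protein kinase C gene (-0.34, SE 0.072, adjusted p = 0.0291).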

How the data were processed

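The deposited values are gene counts, which the authors made from rRNA-depleted, directional RNA-seq libraries of E15.5 brain. Reads were trimmed with FASTX-toolkit and cutadapt 2.6, aligned to mm10 with HISAT2 2.1.0 and quantified over Ensembl transcripts with StringTie 2.0.6, whose script derives counts from coverage. Which rRNA kit and sequencer served each library, and the strand setting, are not given in the sources used here. No normalization had been applied.

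Counts were fitted with R 4.3.3 and edgeR 4.0.16 (TMM, filterByExpr with at least 10 counts scaled to library size and 15 in total, robust dispersions, quasi-likelihood F test) over all genes, in males, in females, over both sexes with sex as a covariate, and with an interaction of sex and genotype. P-values were adjusted by Benjamini-Hochberg with a threshold of 0.05. Whsc1 was left out of counts of calls. The standard error is the log2 fold change divided by the square root of F. CPM used TMM library sizes, and CPM per kb divided them by annotated exon length (GENCODE M 21, GRCm38). No members' sequences are shown.

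The members and lists were chosen with earlier results of these data known. Given in full were members called in any comparison of KO with WT and the 2 members of each subfamily with the highest CPM per kb. Pcdha4, Pcdha8, Pcdhga9 and Pcdhga12 were added after their values were seen. Alternatives were RLE size factors, DESeq2 1.42.0, the likelihood ratio test, no filter, more than 1 CPM in 3 libraries, the replicate block, the Hox level as a covariate, libraries low in Hoxa5, the spread of all 12 libraries and each library left out. No libraries were duplicates. The fits were also run on simulated counts, and the outcome is not given here. PCR copies were not removed by molecular identifiers, so counting error is a lower limit.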

Additional observations from a re-analysis of the deposited data

How the results depend on the processing

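Each of the 11 named member results with a test kept its direction under every alternative run. In males the count of members lower (1) was 4 with DESeq2, 4 with the likelihood ratio test, 3 with the replicate block, 0 with the Hox level as a covariate and 2 with the spread of all 12 libraries, and 0 to 1 without each library. The count higher in males (1) was 5 with DESeq2, 4 with the likelihood ratio test, 0 without a filter, 2 with the replicate block and 0 with the Hox covariate, and 0 without each library. With the spread of all 12 libraries the members called in males were others, Pcdha6 and Pcdhga10 lower and Pcdha7 higher, and Pcdhgb5 (adjusted p = 0.0598) and Pcdhga7 (adjusted p = 0.180) were not called. Over all genes in males, 63 were called lower and 23 higher in the main fit. They were 362 and 122 with DESeq2, 270 and 69 with the likelihood ratio test, and 219 and 70 with the replicate block. With the Hox covariate they were 9 and 7, without a filter 54 and 21, and with the spread of all 12 libraries 84 and 19. Without each library in turn, 11 to 88 genes were called lower and 9 to 25 higher. In females the count of members lower (0) was 6 with DESeq2, 5 with the likelihood ratio test and 4 with the spread of all 12 libraries, and 0 to 1 without each library. Over all genes in females, 1 was called lower in the main fit. It was 129 with DESeq2, 63 with the likelihood ratio test, 28 with the spread of all 12 libraries, and 0 to 34 without each library. Over both sexes the counts of 6 members lower and 3 higher were 3 and 1 with the replicate block, 0 and 0 in the libraries under 1 CPM of Hoxa5, and 3 to 7 lower and 1 to 2 higher without each library. Over all genes, 305 were called lower and 79 higher in the main fit. They were 221 and 43 with the block, and 32 and 6 in the libraries under 1 CPM of Hoxa5. Without each library in turn, 164 to 310 genes were called lower and 38 to 80 higher. With the block Pcdha1 (adjusted p = 0.108), Pcdha11 (ENSMUSG00000007440, 0.0501), Pcdhga8 (0.128), Pcdhgb6 (0.0693) and Pcdhga11 (0.0948) were not called. The Hoxa5 subset has fewer samples, and the cause of the other changes was not tested.

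Deviations of same-numbered KO and WT libraries from their group means were at most weakly correlated (r between -0.04 and 0.19 in males and between -0.05 and 0.19 in females). Libraries numbered 2 in males and 3 in females correlated best with their own number, and not every library did. Such correlations within groups of 3 cannot settle whether the samples were paired. The labels name no pairs, so the block is an alternative only. The sum of alpha genes had a log2 ratio of 0.01 in females and 0.03 in males, against -0.0499 in females and -0.04 in males with C-type and read-through genes added. The sum of gamma A and B genes had a log2 ratio of -0.33 in females and -0.09 in males. With C-type and read-through genes and the overlapping gene Gm38182 added, it was -0.23 in females and -0.003 in males. The share of Pcdhgb6 in the gamma sum had a log2 ratio of -0.11, and 0.17 when taken within gamma B genes. The cause of these changes was not tested.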
